A study of Mus musculus with 24 samples.

Results

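Glycolysis and hypoxia response genes are the subject of this account. The 46 members were listed by function as glycolytic enzymes (17 genes), carriers of glucose and lactate (5 genes), regulators of glycolytic flux (5 genes) and genes of the response to low oxygen (19 genes), out of 53465 genes in the count files. Brain RNA was sequenced from 6 CAST/EiJ and 6 WSB/EiJ mice, inbred strains derived from wild mice of different subspecies of the house mouse. The study compared these strains because blocking a main artery of the brain, as a model of stroke, leaves infarcts of different volume in them. Every library comes from brain, and the labels name no operation, treatment, age, sex or dissection for any of the 12 animals. No control or treated group exists, so each comparison is between strains.

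Glycolysis splits glucose into pyruvate in the cytosol, and brain tissue depends on a steady supply of glucose carried across the blood-brain barrier. Astrocytes export part of the product as lactate, which neurons can take up through monocarboxylate carriers. Hypoxia-inducible factors are transcription factors whose alpha subunits are hydroxylated by oxygen-dependent enzymes, then bound by the Vhl protein and destroyed. When oxygen falls, the subunits persist and bind a short DNA motif near target genes, among them many glycolytic genes and Vegfa, which drives the growth of vessels.

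The levels below are CPM, that is reads of a gene per fixed total of reads in genes, scaled between libraries by the TMM method and resting on 32982569 to 46513232 reads in genes per animal. Lanes 5 and 6 of each animal were summed as repeat sequencing of 1 library. The brain label held up, with neuron markers summing to 5059 to 6046 CPM in CAST and 5695 to 6932 CPM in WSB. The animal CAST_142 stands apart. Its 6 cerebellar neuron markers, of which Pcp2 and Cbln1 are listed at 0 in every animal, sum to 1563 CPM, against 117 to 174 in the other CAST animals and 108 to 148 in WSB. Outside CAST_142 most of this sum is Calb1, at 107 to 144 CPM. Fat2 was at 550 CPM in CAST_142, 17.6 in CAST_170, 10.3 in WSB_120 and at most 2.16 in the remaining animals. The striatal neuron markers of CAST_142 sum to 313 CPM, against 695 to 1437 in the other CAST animals. In WSB_100 the 5 olfactory bulb markers sum to 352 CPM, the highest of all animals, with Doc2g at 13.8 CPM. Mural cell markers sum to 107 to 128 CPM in CAST and 197 to 220 CPM in WSB. By the test used below, 4 of these 6 genes were lower in CAST. The largest part of the sum is Rgs5, at 41.6 to 52.3 CPM in CAST and 103 to 127 CPM in WSB. Acta2 overlaps, at 4.59 to 8.04 CPM in CAST and 3.68 to 5.97 CPM in WSB. The sums of endothelial markers overlap between strains, at 162 to 185 CPM in CAST and 156 to 181 CPM in WSB, while 3 of these 6 genes were called, Pecam1 and Tie1 higher and Tek lower in CAST. In bulk tissue, fewer cells of a type and less RNA per cell cannot be told apart. The indexes of all CAST libraries precede those of all WSB libraries, so index order and strain cannot be told apart.

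Of the 46 members, 45 had enough reads to be tested and 18 differed between the strains, 8 of them higher and 10 lower in CAST (quasi-likelihood test of edgeR over 18425 genes, with p adjusted by Benjamini-Hochberg and called under 0.05). The largest fold was that of the scarce Car9, 3.89-fold higher in CAST, and Pgk1 was 2.82-fold lower. Hk2, Pkm and Vegfa were higher in CAST, and Slc2a3, Epas1 and Egln1 were lower. Pgam1 was higher as well, but turned lower when the reads of its copies were added. The background is high in this comparison of distant strains: 42.7% of all genes tested were called, 21.5% higher and 21.2% lower in CAST. The members' share of 18 in 45 lies near that background and is not a result about these genes. For 14 of 45 members no CAST animal fell within the range of WSB or the reverse, where 27.1% of all genes tested had ranges that did not overlap. Called differences of at least 1.5-fold numbered 5, which were Hk2 and Car9 higher and Pgk1, Hif3a and Egln3 lower, against a background of 20.8%. The median size of the log2 difference was 0.15 over the 45 members and 0.22 over all genes tested. Without CAST_142 and WSB_100, 21 members were called, 17 of them among the 18. Aldoc, Slc16a1, Pdk1 and Bnip3 joined and Egln2 dropped out. The count over all genes rose as well, to 8624 of 18511 tested, against 7866 of 18425 with every animal.

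**Figure D1:**
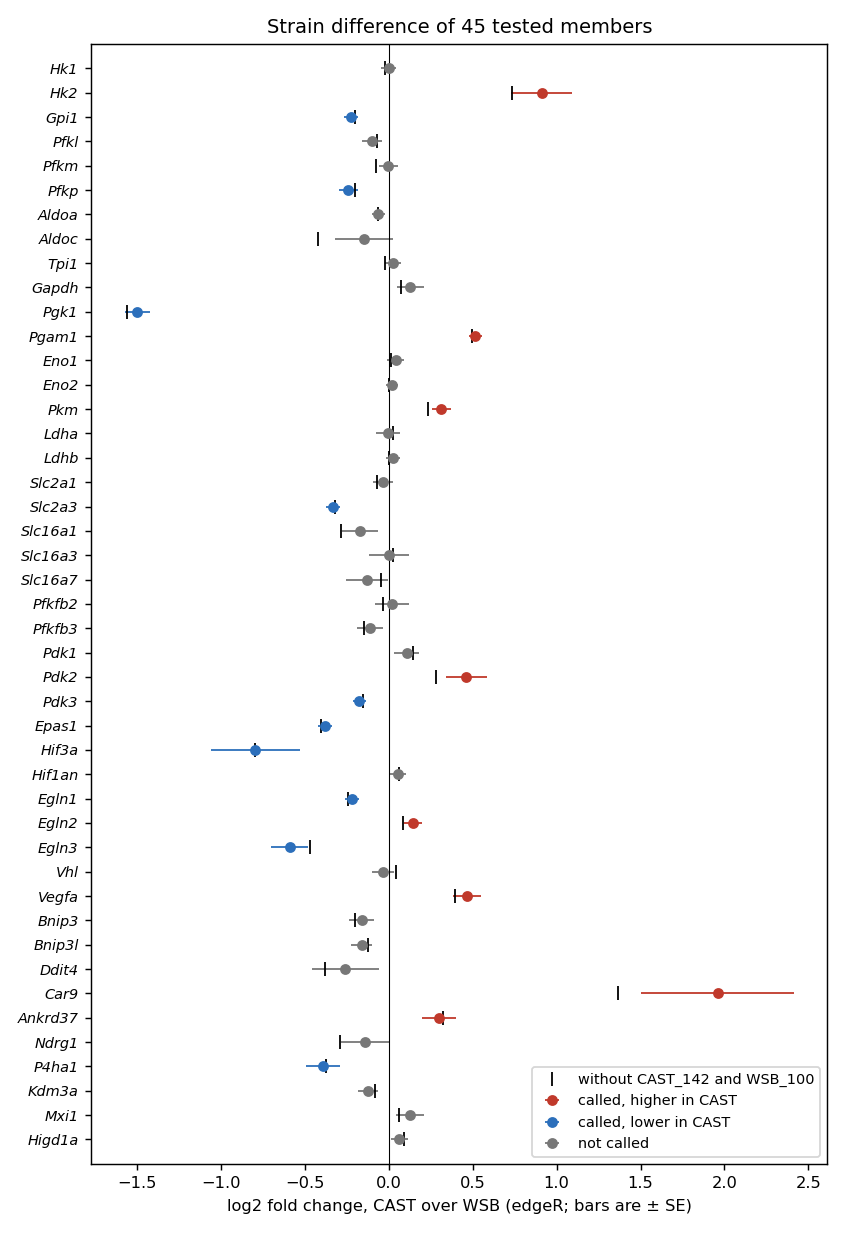
Log2 fold change of CAST over WSB for each of the 45 members tested, grouped by role, with bars of ± SE from edgeR and 6 animals in each strain. Most points lie near 0, and Pgk1 at -1.5 and Car9 at 1.96 lie farthest from it.

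The summed counts of the enzyme genes, without their copies, were at nearly the same level in both strains. The 17 enzymes summed to 5064 ± 259 CPM in CAST against 5121 ± 134 CPM in WSB (mean ± SD, n = 6 per strain), with ranges of 4849 to 5569 and 4957 to 5267 that overlap. Without Pgk1, Pgam1, Eno1 and Gapdh the sums were 4932.8 ± 253.4 CPM in CAST and 4995.5 ± 132.6 CPM in WSB. Those genes, whose calls or differences changed with copies added, thus weigh little in the sum of these counts. The counts leave out alignments that were not unique, so their weight with all reads placed is not known. Per kilobase of annotated exon, where levels of different genes may be set side by side, the most abundant was Aldoa, an aldolase that splits fructose 1,6-bisphosphate, at 213 CPM per kb in CAST and 223 in WSB. Aldoa itself ranged from 606 to 642 CPM in CAST, with a median of 620, and from 616 to 685 in WSB, with a median of 645. These ranges overlap, and its log2 difference of -0.06 was not called (adjusted p = 0.226). In the annotation, 49.4% of Aldoa exon bases lie outside the bodies of other genes and 99.1% outside their exons. Next in CAST came Eno2, the enolase characteristic of neurons, at 184 CPM per kb, and Ldhb, a subunit of lactate dehydrogenase, at 175. The lowest levels per kb in CAST were those of Pgk1 at 3.47, Gapdh at 2.98 and Hk2 at 1.33. These counts may include intronic reads, so the order holds for the counts and need not hold for mature mRNA. Gapdh, which oxidises glyceraldehyde 3-phosphate, is among the lowest although it is a staple enzyme of every cell. In the GENCODE M21 annotation it shares 27.9% of its transcript 32-mers, that is stretches of 32 bases, with other genes, and 95 genes count as its copies, 93 of them pseudogenes. Pgk1 shares 54.7% of its 32-mers with other genes. The part of copies in the level of Gapdh or Pgk1 was not tested.

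**Figure D2:**
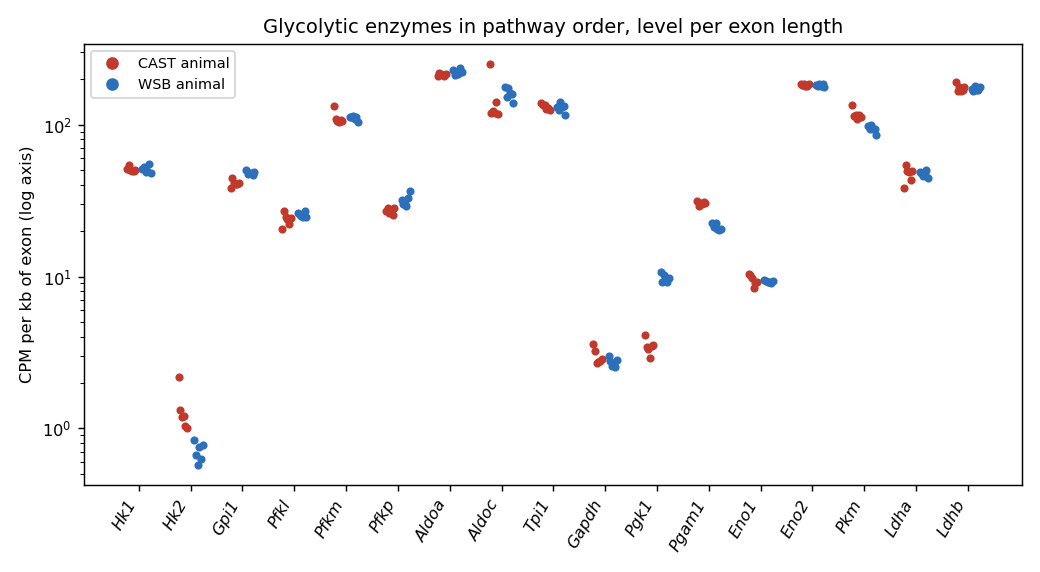
Level of the 17 glycolytic enzymes in pathway order, as CPM per kilobase of exon on a log axis, with a point for each animal of each strain. The strains lie close together for most enzymes, from Aldoa above 200 down to Hk2 near 1, and stand clearly apart for Pgk1.

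Among the 17 enzymes, 3 were higher in CAST, 3 were lower and 11 were not called, where 21.5% and 21.2% of all genes tested were higher and lower. Hk2, an inducible hexokinase that phosphorylates glucose at the outer mitochondrial membrane, was the enzyme with the largest difference upwards. Its lowest, median and highest levels were 6.04, 7.17 and 13.1 CPM in CAST and 3.44, 4.23 and 5.01 CPM in WSB. Every CAST animal lay above every WSB animal, and CAST_142 was the highest of all. The mean was 1.88-fold higher in CAST (log2 difference 0.91 ± 0.18 SE, adjusted p = 0.00105). Without CAST_142 the log2 difference was 0.71 (adjusted p = 1.25e-04), and the ranges remain apart. Hk1, the major hexokinase of brain, ran from 423 through a median of 428 to 461 CPM in CAST and from 409 through 429 to 473 in WSB and was not called (adjusted p = 0.984).

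Gpi1, which interconverts glucose 6-phosphate and fructose 6-phosphate, ran from 246 through a median of 266 to 287 CPM in CAST and from 299.9 through 310.3 to 323 CPM in WSB. All CAST animals were below all WSB animals. The log2 difference of -0.23 ± 0.04 (SE) passed the test with an adjusted p of 4.94e-04. Pfkp, the platelet-type phosphofructokinase, ran from 339 through 359 to 378 CPM in CAST and from 393 through 416 to 489 CPM in WSB, again with no overlap. Its log2 difference was -0.24 ± 0.06 (SE; adjusted p = 0.00319). The other phosphofructokinases, which carry out the committed step of the pathway, were not called: Pfkm ran from 349 through 355 to 440.4 CPM in CAST and from 350.5 through 373 to 379.9 in WSB, and Pfkl averaged 159 and 170 CPM.

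Pgk1, an X-linked gene (chrX:106187100-106203699, GRCm38), encodes phosphoglycerate kinase, which makes the first ATP of the pathway. Its levels were 6.54, 7.74 and 9.29 CPM (lowest, median and highest) in CAST and 20.5, 21.9 and 24.1 CPM in WSB. The strains were far apart, with the highest CAST animal below the lowest WSB animal. This gave a log2 difference of -1.5 ± 0.08 (SE; adjusted p = 3.13e-09). Over its transcripts, 54.7% of 32-mers also occur in transcripts of other genes. One copy, Pgk1-rs7, is annotated as a processed pseudogene on another chromosome (chr12:10898986-10900240) and matches Pgk1 without a mismatch over 1250 aligned coding bases. The first 60 of these bases are shown because they make plain that a read from here has no letter that tells the genes apart in the reference:
Pgk1: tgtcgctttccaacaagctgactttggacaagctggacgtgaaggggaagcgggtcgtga
Pgk1-rs7: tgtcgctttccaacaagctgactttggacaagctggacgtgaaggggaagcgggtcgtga
Pgk1-rs7 held 17.4 ± 1.27 CPM in CAST against 17.9 ± 2.09 CPM in WSB (mean ± SD, n = 6 per strain) and was not called (adjusted p = 0.706). With the reads of its copies added to Pgk1, the log2 difference shrank to -0.67 but kept its direction and its call (adjusted p = 5.21e-07).

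Pgam1, a phosphoglycerate mutase (chr19:41911923-41918660, GRCm38), moved the other way. It ran from 57.4 through a median of 60.3 to 62.2 CPM in CAST and from 40.1 through 41.3 to 44.7 CPM in WSB, so every CAST animal was higher. The log2 difference was 0.52 ± 0.04 (SE; adjusted p = 1.69e-07). It also has an exact copy, Pgam1-ps2 (chr7:27469771-27470535), a pseudogene without a mismatch over 762 coding bases, whose opening is given for the same reason:
Pgam1: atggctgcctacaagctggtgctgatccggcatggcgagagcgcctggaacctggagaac
Pgam1-ps2: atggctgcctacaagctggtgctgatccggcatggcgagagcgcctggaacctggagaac
The copy had 44.2 ± 2.77 CPM in CAST against 75.4 ± 6.54 CPM in WSB (mean ± SD, n = 6 per strain), a log2 difference of -0.77 (adjusted p = 2.79e-07). The gene and its copy thus differ in opposite directions. With their reads added together the log2 difference turned to -0.17 (adjusted p = 0.00985). The direction for Pgam1 thus depends on whether the reads of the copy are counted with it, and its call is uncertain. How reads of the identical stretches were placed was not tested.

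Pkm, the pyruvate kinase that yields pyruvate and ATP at the end of the pathway, ran from 545 through 573 to 679 CPM in CAST and from 428 through 471 to 499 CPM in WSB. The ranges do not overlap, and CAST_142 was the highest. The log2 difference of 0.31 ± 0.06 (SE) had an adjusted p of 6.21e-04, and adding the reads of its copies left it at 0.31. Aldoc, an aldolase typical of astrocytes and of Purkinje cells of the cerebellum, was not called (log2 difference -0.15, adjusted p = 0.525). In 5 CAST animals it ran from 384 to 460 CPM, while CAST_142 had 819, and WSB ran from 452 to 580. Without CAST_142 the log2 difference was -0.38 (adjusted p = 4.29e-04), so this animal decides the call. The part of its cerebellar marker level in this was not tested.

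The remaining enzymes gave no call. Eno2 averaged 864 ± 11.6 CPM in CAST against 853 ± 17.6 CPM in WSB (mean ± SD, n = 6 per strain; adjusted p = 0.693). Its medians were 865 in CAST, within 849.99 to 878, and 850.4 in WSB, within 829.7 to 876, so the ranges overlap in part. Tpi1, the triose phosphate isomerase, ran from 346 through a median of 361 to 384 CPM in CAST and from 319 through 359 to 388 in WSB. Lactate dehydrogenase interconverts pyruvate and lactate, and its subunit genes Ldha (157 CPM in each strain) and Ldhb were also not called. Ldhb ran from 262 through 273 to 299 CPM in CAST and from 261 through 269 to 281 in WSB, which overlap. Gapdh ran from 11.1 through 11.7 to 14.9 CPM in CAST and from 10.4 through 11.3 to 12.4 in WSB (adjusted p = 0.213), and Eno1, the ubiquitous enolase, 51.3 and 49.8 CPM (adjusted p = 0.539).

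Several enzymes have annotated copies whose counts differed between the strains, and for Eno1 and Gapdh the gene itself was not called. Eno1b, a copy of Eno1, had 44.2 ± 3.22 CPM in CAST against 118.7 ± 5.78 CPM in WSB (mean ± SD, n = 6 per strain; adjusted p = 1.32e-10). Another, Gm4735, was 1.12-fold higher in CAST (adjusted p = 0.0344). Summed with its copies, Eno1 changed from a log2 difference of 0.04 to -0.65 (adjusted p = 1.27e-07). The call for Eno1 therefore rests on which reads are taken as its own. For Gapdh the copy Gm10327 had 3.32 ± 0.473 CPM in CAST and 0.137 ± 0.0563 in WSB (adjusted p = 1.37e-09), while Gm5069 was not called at 3.81 and 2.93 CPM. Summed, Gapdh was higher in CAST by 0.40 on the log2 scale (adjusted p = 1.80e-04). Gpi1 has Gm1840, at 129 CPM in CAST and 116 in WSB (adjusted p = 0.00672), and summed with its copies its log2 difference was -0.11 in place of -0.23 (adjusted p = 0.0361).

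Other copies carry mismatches. Gm5514 (chr19:21937380-21938381) is 98% identical to the coding sequence of Ldhb, with 20 mismatches over 1002 bases. Only the reference sequence was used, and sequence differences of CAST or WSB from it were not examined. The stretch with coding bases 832 to 891 is shown because it holds 4 of the mismatches, in capitals, that tell the genes apart in that reference:
Ldhb: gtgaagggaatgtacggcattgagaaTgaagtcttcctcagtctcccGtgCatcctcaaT
Gm5514: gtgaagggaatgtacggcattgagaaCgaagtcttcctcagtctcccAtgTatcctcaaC
Gm5514 was 2.22-fold lower in CAST, at 16.4 against 36.4 CPM (adjusted p = 1.27e-08). Since Ldhb has many more reads, adding the copy moved its log2 difference only from 0.02 to -0.08 (adjusted p = 0.185).

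**Figure D3:**
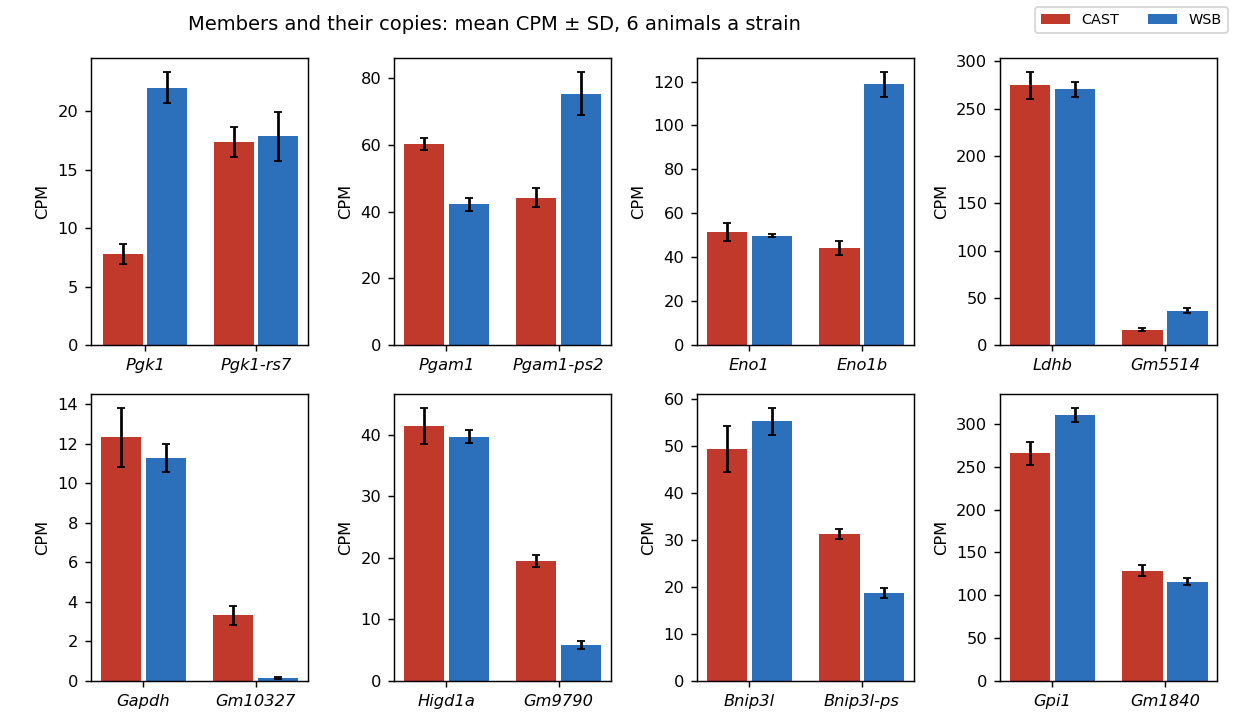
Mean CPM of 8 members and of an annotated copy of each, in CAST and WSB, with bars of ± SD over 6 animals. Pgk1 differs while Pgk1-rs7 does not, Pgam1 and Pgam1-ps2 differ in opposite directions, and Eno1, Higd1a and Gapdh were not called while the copies shown were.

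Of the 5 carriers, 1 differed, where 42.7% of all genes tested were called. Slc2a3, the high-affinity glucose carrier of neurons (also known as Glut3), was lower in CAST. Its lowest, median and highest levels were 129.6, 139.7 and 142.8 CPM in CAST and 159, 178 and 185 CPM in WSB. No CAST animal reached the lowest WSB animal. The fitted log2 difference was -0.33 ± 0.04 (SE; adjusted p = 3.38e-05). Slc2a1, the glucose carrier of the blood-brain barrier and of glia, averaged 43.4 CPM in CAST and 44.5 in WSB and was not called (adjusted p = 0.665). In the annotation, 38.7% of its exon bases lie outside the bodies of other genes and 97.0% outside their exons.

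The monocarboxylate carriers, which move lactate and pyruvate across membranes, were not called. Slc16a1, found in endothelium and glia, ran from 42.6 through a median of 45.9 to 52.8 CPM in CAST and from 39.2 through 52.2 to 64.6 in WSB, which overlap (adjusted p = 0.22). Without WSB_100, the lowest WSB animal at 39.2 CPM, it passed with a log2 difference of -0.24 (adjusted p = 0.0393). Slc16a7, the neuronal carrier, averaged 62.5 CPM in CAST and 68.3 in WSB. The lactate exporter Slc16a3 was scarce, at 3.91 and 3.90 CPM. The carriers with most counts per kb of annotated exon were Slc2a3 among glucose carriers and Slc16a1 among monocarboxylate carriers. They held 60.7% and 63.7% of their families' summed level in CAST. Of the exon bases, 38.7% for Slc2a1 but 100% for Slc2a3 lie outside the bodies of other genes. If reads in overlapped bases were not counted, the order of Slc2a1 and Slc2a3 need not hold.

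Among the 5 regulators, Pdk2 was higher and Pdk3 lower in CAST, where 21.5% and 21.2% of all genes tested were higher and lower. Pdk2 and Pdk3 are kinases that switch off the pyruvate dehydrogenase complex and so limit the entry of pyruvate into mitochondrial oxidation. Pdk2 ran from 91.6 through a median of 95.6 to 159 CPM in CAST and from 70.4 through 76.0 to 85.4 CPM in WSB. The ranges do not overlap, and the highest value is that of CAST_142, far above the next at 97.3 CPM. In the test, the log2 difference was 0.46 ± 0.12 (SE; adjusted p = 0.00773), and without CAST_142 it was 0.31 (adjusted p = 6.74e-05). Pdk3 ran from 29.0 through 30.4 to 31.5 CPM in CAST and from 32.2 through 34.4 to 36 CPM in WSB. Its ranges lie close together but do not overlap (log2 difference -0.18 ± 0.04 SE, adjusted p = 0.00248).

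Pdk1, a kinase of the same complex and a known hypoxia target, averaged 71.4 CPM in CAST and 66.4 in WSB and was not called (adjusted p = 0.29). Its lowest CAST value, 55.9 CPM, is that of CAST_142, and without that animal the log2 difference of 0.16 passed (adjusted p = 0.0193). Pfkfb2 and Pfkfb3 make fructose 2,6-bisphosphate, which activates phosphofructokinase. Pfkfb3 ran from 49.7 through 55.2 to 58.3 CPM in CAST and from 51.4 through 55.1 to 70.98 in WSB, and Pfkfb2 averaged 2.52 and 2.48 CPM, with no call for either. Only 11.8% of the body of Pfkfb2 lies outside other genes, and with the reads of Gm29427, which overlaps it and shares its sequence, the log2 difference was 0.27 (adjusted p = 0.0353).

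Paralogs were next compared within each library as log2 ratios of CPM, since a ratio is free of library scaling. Of 12 pairs, 5 differed between the strains after adjustment over the 12 (exact two-sided permutation test, whose smallest possible p is 0.0022). A ratio moves when either partner does, and 42.7% of all genes tested were called. The share over other pairs of genes was not computed, so this count is not a result about these families. The Hk1/Hk2 ratio was lower in CAST by 0.87 on the log2 scale (difference -0.87), and Pdk3/Pdk2 differed by -0.61. Egln1/Egln2 differed by -0.36 and Slc2a3/Slc2a1 by -0.30. Each of these 4 pairs had ranges that did not overlap and an exact permutation p of 0.0022 (adjusted p = 0.00649). For Pfkp/Pfkm the difference was -0.23 (exact permutation p = 0.00433, adjusted p = 0.0104) with overlapping ranges, and without CAST_142 and WSB_100 it was -0.13 (adjusted p = 0.0317). In each of these 5 pairs at least 1 partner was called on its own. As shares of the family's CPM per kb of exon, Hk2 made up 2.54% of hexokinase counts in CAST and 1.38% in WSB, so Hk1 dominated in both strains. Among the pyruvate dehydrogenase kinases, Pdk2 held 60.7% in CAST and 52.4% in WSB, and Pdk3 22.1% and 29.1%. Eno2 held 95.1% of enolase counts in each strain, and the Eno2/Eno1 ratio was not called (adjusted p = 0.919). Adding the copies of Eno1 made this ratio differ by 0.67 (adjusted p = 0.00519). The enolase shares leave out the copies, although Eno1b had more reads than Eno1, at 3316.5 against 2099.6 on average. They therefore need not hold for the mRNA of Eno1. Ldhb held 78.7% of lactate dehydrogenase counts in CAST and 78.4% in WSB. The Aldoc/Aldoa ratio was not called with all animals (adjusted p = 0.789) but differed by -0.32 without CAST_142 (adjusted p = 0.0208). Adding copies also brought Bnip3l/Bnip3 past the threshold at 0.28 (adjusted p = 0.0297).

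**Figure D4:**
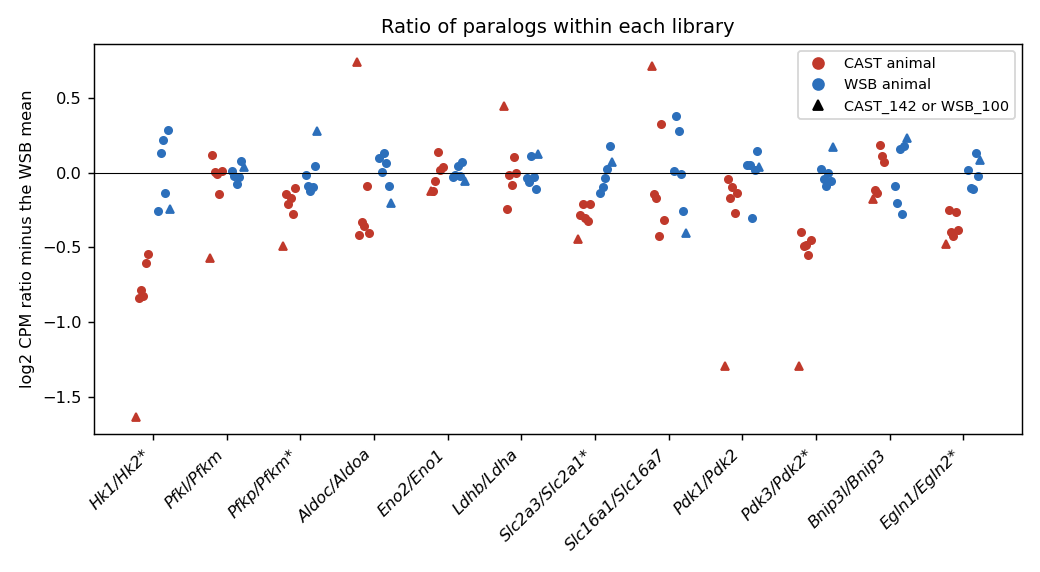
Log2 CPM ratio of 12 pairs of paralogs in each animal, with the mean of the 6 WSB animals set to 0. The CAST points of Hk1/Hk2, Pdk3/Pdk2, Slc2a3/Slc2a1 and Egln1/Egln2 all lie below the WSB points, while the other pairs overlap.

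The hypoxia-inducible factor binds a core of the letters ACGTG, which is read as CACGT on the opposite strand. RefSeq promoters (GRCm38.p6, 250 bases before to 50 bases after each start) were found for 41 of the 46 members; Bnip3l, Epas1, Ndrg1, Slc16a7 and Slc2a3 had none in the table. At least 1 promoter held the letters in 28 of 41 members (68.3%). The share was 21.8% of all 27025 genes of the table and 27.4% of the 12830 genes tested here. A gene with more promoters has more chances of a match, and promoters per gene were not matched between these sets. Of all 32851 promoters taken singly, 19.6% held the letters. The letters were found in 11 of 16 hypoxia members and in 17 of 25 enzymes, carriers and regulators. They were found in 8 of 8 members higher in CAST, 5 of 8 lower and 15 of 24 not called, so they occur among genes that moved either way and genes that did not. CACGTG holds both forms and is also bound by other factors, so a match is only a description of the sequence. Windows of 41 bases with the letters in capitals follow, on the strand of the gene, for 6 called members and for 2 hypoxia targets that were not called, to show that the letters occur in genes with different strain results:
Hk2 (chr6:82774484-82774524, minus strand, higher): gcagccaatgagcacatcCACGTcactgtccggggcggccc
Pgam1 (chr19:41911739-41911779, plus strand, higher): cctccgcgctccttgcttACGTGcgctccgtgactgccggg
Pdk2 (chr11:95041474-95041514, minus strand, higher): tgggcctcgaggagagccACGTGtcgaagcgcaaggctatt
Egln2 (chr7:27166828-27166868, minus strand, higher): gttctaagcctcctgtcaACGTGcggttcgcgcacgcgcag
Pgk1 (chrX:106186932-106186972, plus strand, lower): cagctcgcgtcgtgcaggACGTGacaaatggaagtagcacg
Egln3 (chr12:54204081-54204121, minus strand, lower): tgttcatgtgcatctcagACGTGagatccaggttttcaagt
Bnip3 (chr7:138909591-138909631, minus strand, not called): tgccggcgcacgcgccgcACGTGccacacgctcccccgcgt
Ddit4 (chr10:59951935-59951975, minus strand, not called): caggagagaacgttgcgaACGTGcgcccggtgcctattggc
The motif starts 52 bases before the start of transcription in Hk2 and 150 bases before it in Pgk1.

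Among the 19 hypoxia members, 18 were tested, of which 4 were higher in CAST, 5 were lower and 9 were not called. Over all genes tested, 21.5% were higher and 21.2% lower. Of the factor's alpha subunits, Epas1 and Hif3a could be tested. Epas1, which encodes the alpha subunit HIF-2 alpha and is prominent in endothelium, mural cells and astrocytes, ran from 136 through a median of 141 to 146.8 CPM in CAST and from 170 through 183 to 200.4 CPM in WSB. All CAST animals were below all WSB animals. This gave a log2 difference of -0.38 ± 0.04 (SE; adjusted p = 5.88e-06). The summed endothelial markers overlap between the strains, while the summed mural cell markers are lower in every CAST animal. The summed astrocyte markers overlap as well, at 3817 to 5270 CPM in CAST and 3823 to 4582 CPM in WSB. Of these 6 genes, Gfap is listed at 0, Aldh1l1 was lower and Gja1 higher in CAST. The part of any of these cell types in the Epas1 difference was not tested.

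Hif3a, an alpha subunit that can dampen the response, ran from 5.70 through 6.92 to 13.0 CPM in CAST and from 7.88 through 14.1 to 22.7 CPM in WSB. The ranges overlap, with CAST_142 the highest CAST animal and WSB_100 the highest of all. The log2 difference was -0.80 ± 0.27 (SE; adjusted p = 0.0276). The call was lost when any of CAST_200, CAST_201, CAST_202, CAST_203, WSB_138 or WSB_100 was left out, with adjusted p up to 0.0648. Hif1a, the alpha subunit best known in this response, is listed at 0 in every animal. Its body lies inside other annotated genes, as does that of Adm, a peptide hormone and hypoxia target that is the 1 member without a test. Of 1246 protein-coding genes whose body lies inside another gene, 1232 are listed at 0 in every animal, against 2324 of 20764 others, so nothing is said here of the expression of Hif1a or Adm.

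The oxygen sensors differed among themselves. Egln1, the prolyl hydroxylase that chiefly sets the level of the factor, ran from 60.9 through a median of 63.5 to 68.8 CPM in CAST and from 70.6 through 74.9 to 79.0 CPM in WSB, without overlap. Its log2 difference was -0.22 ± 0.04 (SE; adjusted p = 6.88e-04). Egln3, a hydroxylase that is itself induced by hypoxia, ran from 6.87 through 8.38 to 9.47 CPM in CAST and from 10.7 through 11.9 to 15.7 CPM in WSB, again without overlap (log2 difference -0.59 ± 0.11 SE, adjusted p = 6.89e-04). Egln2 went the other way, from 79.3 through 84.6 to 99.8 CPM in CAST and from 72.7 through 79.1 to 81.2 CPM in WSB. These ranges overlap, the log2 difference was 0.15 ± 0.05 (SE; adjusted p = 0.041), and without CAST_142 it was 0.10 and no longer called (adjusted p = 0.0525). The call for Egln2 was also lost without CAST_201, CAST_203, WSB_138, WSB_147, WSB_169 or WSB_100, with adjusted p up to 0.0955. Hif1an, which hydroxylates an asparagine of the factor, averaged 67.7 CPM in CAST and 65.1 in WSB. Vhl, the recognition subunit of the ligase that marks the factor for destruction, averaged 40.7 and 41.7 CPM. Neither was called.

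Of the 12 hypoxia targets, 3 were higher in CAST, 1 was lower, 7 were not called and Adm was not tested. The shares of all genes tested were 21.5% higher and 21.2% lower. Vegfa, the vessel growth factor (chr17:46016993-46032369, GRCm38), ran from 124.8 through a median of 128.5 to 175 CPM in CAST and from 87.1 through 102 to 109 CPM in WSB. Each CAST animal exceeded each WSB animal. The fitted log2 difference was 0.47 ± 0.08 (SE; adjusted p = 5.24e-04). Car9, a carbonic anhydrase at the cell surface and a classic hypoxia marker, was scarce, at 0.368, 1.33 and 4.04 CPM (lowest, median and highest) in CAST and 0.272, 0.414 and 0.548 CPM in WSB. Its ranges overlap through CAST_202, the lowest CAST animal, and the highest is CAST_142. The mean was 3.89-fold higher in CAST (log2 difference 1.96 ± 0.45 SE, adjusted p = 0.00328), on as few as 9 reads in an animal. Without CAST_142 the log2 difference was 1.44 (adjusted p = 0.00193). The part of the cerebellar marker level of CAST_142 in these values was not tested.

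Ankrd37, a small ankyrin-repeat gene induced by hypoxia, had 2.62, 2.96 and 3.35 CPM in CAST and 2.06, 2.40 and 2.93 CPM in WSB. The ranges overlap, and the log2 difference was 0.30 ± 0.10 (SE; adjusted p = 0.0303). The call was lost in either lane alone, where the difference was 0.285 and 0.319, and when any of CAST_170, CAST_200, CAST_203, WSB_120, WSB_135 or WSB_147 was left out, with adjusted p up to 0.146. The share of its body free of other annotated genes is 26.6%. P4ha1, the catalytic subunit of the prolyl hydroxylase that matures collagen, was the target that was lower in CAST. It ran from 46.2 through 54.0 to 61.0 CPM in CAST and from 61.5 through 66.7 to 94.8 CPM in WSB. The ranges meet closely without overlapping, and WSB_120 was well above the other animals. In the test, the log2 difference was -0.39 ± 0.10 (SE; adjusted p = 0.00664).

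**Figure D5:**
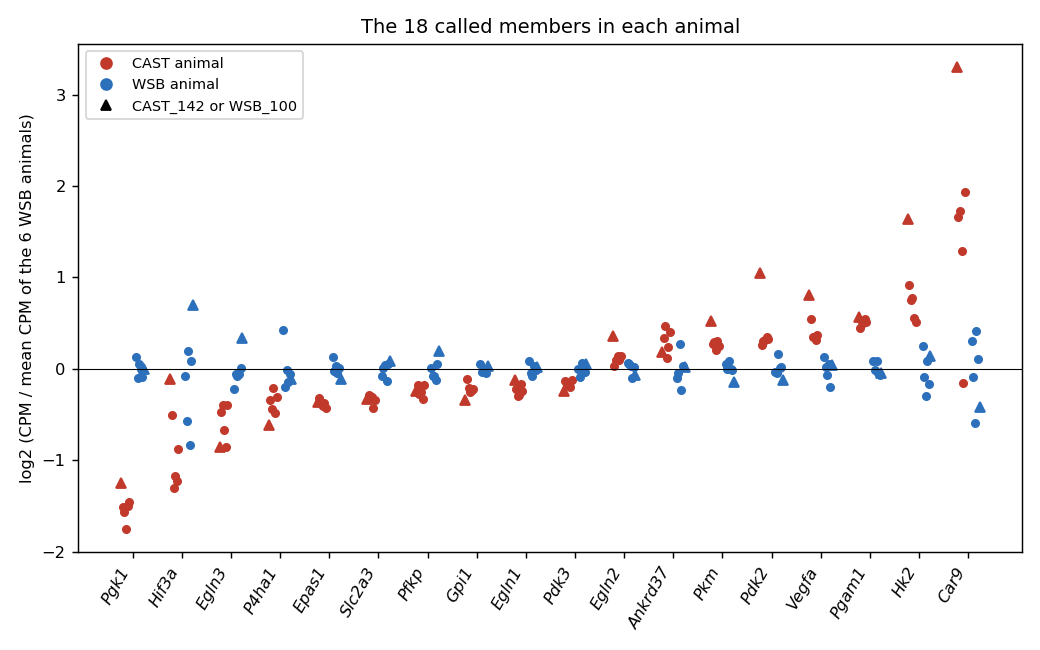
The 18 called members in each animal, as log2 of CPM over the mean of the 6 WSB animals, with a point for each of the 6 CAST and 6 WSB animals. Pgk1 of CAST lies far below 0, Car9 has the widest spread in CAST, and for 14 of the 18 the strains do not overlap.

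The other targets were not called. Mxi1, which encodes an antagonist of Myc, ran from 64.3 through a median of 68.9 to 91.1 CPM in CAST and from 59.0 through 66.6 to 69.7 CPM in WSB, with CAST_142 the highest (log2 difference 0.13, adjusted p = 0.235). Kdm3a, a histone demethylase, averaged 64.4 CPM in CAST and 70.1 in WSB. Ndrg1, a stress-response gene of myelinating cells, averaged 25.4 and 27.9 CPM. Ddit4, an inhibitor of mTORC1 that responds to stress within hours, varied most within WSB, from 27.5 to 65.6 CPM, while CAST ran from 33.6 to 52.1, and the averages of 42.8 and 51.2 did not pass the test (adjusted p = 0.323). Bnip3 and Bnip3l direct the removal of mitochondria. Bnip3 averaged 14.6 CPM in CAST and 16.3 in WSB (adjusted p = 0.0984), and without WSB_100 its log2 difference of -0.20 passed (adjusted p = 0.0384). Of its exon bases, 42.1% lie outside the bodies of other genes, and 56.5% of its 32-mers also occur in other genes.

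Bnip3l averaged 49.4 CPM in CAST and 55.3 in WSB (log2 difference -0.16, adjusted p = 0.0559). It was called lower with DESeq2 (adjusted p = 0.0443). In edgeR it was called lower without CAST_201, CAST_203 or WSB_147 (adjusted p = 0.0120, 0.0451 and 0.0439). Its processed copy Bnip3l-ps (chr12:18216542-18217673) was higher in CAST, at 31.3 ± 1.11 against 18.8 ± 1.07 CPM (mean ± SD, n = 6 per strain; adjusted p = 2.83e-08). The copy is 99.39% identical over 654 coding bases in the reference, with 4 mismatches. The stretch of 60 coding bases below is shown because its capitals mark 2 of the letters by which the genes differ there:
Bnip3l: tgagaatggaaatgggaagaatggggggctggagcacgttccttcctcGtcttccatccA
Bnip3l-ps: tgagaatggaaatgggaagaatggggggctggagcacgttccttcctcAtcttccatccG
Added together the log2 difference was 0.12 (adjusted p = 0.0408), which turns the direction. Higd1a, a small mitochondrial protein induced by hypoxia, averaged 41.5 CPM in CAST and 39.7 in WSB and was not called (adjusted p = 0.318). Its copy Gm9790 was 3.32-fold higher in CAST, at 19.5 ± 1.01 against 5.88 ± 0.647 CPM (adjusted p = 5.85e-10), and the sum was higher by 0.42 on the log2 scale (adjusted p = 2.30e-06). With the reads of copies added to all members that have them, 23 members were called, 11 higher and 12 lower. All 18 were among these, though Pgam1 had changed direction. Over all genes, 7871 of 18425 tested were called in this setting, which added copies to members alone.

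Genes of the same pathways that are not members were read from lists written by function. Of 24 tested genes of glycolysis and pyruvate dehydrogenase, 8 were higher and 6 lower in CAST, where 21.5% and 21.2% of all genes were. Dlat, a core subunit of pyruvate dehydrogenase, was higher at 119 against 95.0 CPM (log2 difference 0.32, adjusted p = 4.70e-06), as was Pfkfb4 at 35.0 against 24.4 CPM. Hkdc1, a hexokinase relative, was lower at 3.30 against 18.6 CPM (log2 difference -2.49, adjusted p = 2.34e-06), followed by Pgam2, the muscle mutase, at 4.93 against 9.27 CPM and Adpgk, an ADP-dependent glucokinase, at 15.9 against 21.4 CPM.

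Of 21 tested carriers beyond the members, 3 were higher and 4 lower, against 21.5% and 21.2% of all genes tested. Slc2a4, the insulin-responsive glucose carrier, was higher at 3.87 against 1.29 CPM (log2 difference 1.59, adjusted p = 3.52e-06). Emb, embigin, a partner protein of monocarboxylate carriers, was higher at 48.7 against 30.0 CPM, and Slc16a11 at 31.8 against 20.96 CPM. Lower were Slc2a6 at 16.2 against 20.5 CPM, Slc2a10 at 2.33 against 3.495 and Slc2a9, a urate carrier, at 2.38 against 4.26. Of 31 tested genes of the pentose phosphate pathway and glycogen, 6 were higher and 10 lower, against the same shares of all genes. The higher ones included Epm2a, laforin, at 55.0 against 41.7 CPM, Pygb, the brain glycogen phosphorylase, at 210 against 175 CPM, and H6pd at 15.4 against 12.2 CPM. Phka2, a subunit of phosphorylase kinase, was lower at 39.1 against 60.7 CPM (log2 difference -0.64, adjusted p = 2.77e-07), as were the scarce Tktl1 at 0.377 against 1.49 CPM and Stbd1 at 0.814 against 2.91 CPM.

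Of 71 tested genes of the hypoxia pathway beyond the members, 12 were higher and 16 lower in CAST, against 21.5% and 21.2% of all genes tested. Cxcl12, a chemokine, was higher at 121 against 73.4 CPM (log2 difference 0.72, adjusted p = 1.74e-04), with Mif at 23.5 against 17.9 CPM and Mgst1 at 5.75 against 4.38 CPM. Tfrc, the transferrin receptor, was lower at 75.1 against 109 CPM (log2 difference -0.54, adjusted p = 1.27e-05), as were Cp, ceruloplasmin, at 6.09 against 10.5 CPM and Kdr, the main receptor for Vegfa, at 13.8 against 18.9 CPM. Kdr and its ligand Vegfa thus differed in opposite directions. Arnt, the constant partner of the alpha subunits, was lower as well, at 80.4 against 108 CPM (log2 difference -0.43, adjusted p = 3.13e-04), a gene chosen for mention after its values were seen.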

How the data were processed

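What the authors deposited is a raw count of reads for each gene, in 24 files, 1 for each of 12 animals on lanes 5 and 6. Tools listed in the submitters' processing notes, with no role given, are HTSeq, DESeq2, cutadapt and TopHat2 (2.1.1). For build, annotation, strand setting and RNA extraction, the entry is: not given in the sources used here. GENCODE M21 (GRCm38) gave symbols for 53360 of 53465 identifiers. The 5 counters that name no gene were left out of library sizes and tests; alignments that were not unique made up 15.6% to 16.1% in CAST and 17.0% to 17.5% in WSB. Lanes were summed (chi-square over degrees of freedom 1.09 to 1.40 between lanes). No column lacked a sample.

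Strains were compared in edgeR 4.0.16 (R 4.3.3; quasi-likelihood with robust dispersion, TMM, default expression filter), and fold changes are CAST over WSB. SE is the size of the log2 fold change divided by the square root of F. The test was tried on simulated data. The labels number the animals and say nothing else of their origin, so p-values measure the spread between these animals. For ratios, 0.5 was the prior count added before taking log2 CPM. A copy is a gene that has at least 20% of its own 32-mers in the member, a threshold set after the counts were seen; copies with at least 50 reads on average are named. Every member is named, called members and the most abundant of each role in full, and of each other list the 3 called genes with the smallest p in each direction, of which 1 is not reported here. Members and lists were chosen with earlier results of these data known. Alternatives were other scalings, DESeq2 1.42.0, limma-voom (limma 3.58.1), no filter, single lanes, animals left out, copies added and a 1.5-fold minimum.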

Additional observations from a re-analysis of the deposited data

Results flagged for a closer look

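Over 90 groups of 6 animals (45 members in each strain), 12 had a highest or lowest animal far from the others by Dixon's test at 95%. Chance gives this in about 1 in 20 groups. These groups share the same 12 animals and are not independent. The share over all genes tested was not computed, so the count is not a result about these members. CAST_142 was the animal in 10 of the 12, high in 8 and low in 2. It was high in Hk2 at 13.1 CPM (next animal 7.94), Pfkm at 440 CPM (next 363), Aldoc at 819 CPM (next 460) and Pkm at 679 CPM (next 581). It was also high in Pdk2 at 159 CPM (next 97.3), Egln2 at 99.8 CPM (next 85.8), Car9 at 4.04 CPM (next 1.56) and Mxi1 at 91.1 CPM (next 74.1). It was low in Pdk1 at 55.9 CPM (next 69.9) and Vhl at 33.1 CPM (next 41.6). The same animal has cerebellar neuron markers that sum to 1563 CPM, and the part of this in the values above was not tested. In WSB, Egln3 was high in WSB_100 at 15.7 CPM (next 12.5) and P4ha1 in WSB_120 at 94.8 CPM (next 69.9).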

How the results depend on the processing

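With a minimum of 1.5-fold, 5 members were called, 2 higher and 3 lower, and 5 other glycolysis genes in place of 14, 3 pentose phosphate and glycogen genes in place of 16 and 10 other hypoxia genes in place of 28. At this minimum the share of all genes tested was 20.8% in place of 42.7%. With 1 animal left out, 16 to 19 members were called, 6 to 8 higher and 9 to 11 lower, and 5 to 6 ratios differed. Over all genes, the calls then ran from 7313 of 18569 tested (without CAST_200) to 8726 of 18593 (without CAST_142). Among the called members, Hk2, Pgk1, Egln3 and Car9 kept direction and call in all 22 alternatives; Hif3a lost its call in 7, Egln2 in 10 and Ankrd37 in 10, and Pgam1 turned to -0.17 with copies added. DESeq2 called 19 members, limma-voom 18 and no filter 15. Over all genes tested, these settings called 8253 of 18425, 7797 of 18425 and 9066 of 30264. Scalings moved the median of all genes by at most 0.0013 (log2). No paired analysis was possible because the strains share no animal numbers. The strand and the part of each gene that was counted are not known, which limits genes that overlap others. Genes with copies depend on which reads were kept as unique. Whether reads of CAST and WSB align equally well to the reference was not tested, which limits every comparison of members or copies.

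Members and ratios that were not called with all reads and animals changed sign, most of them near 0. With 1 animal left out, log2 differences ran from -0.0231 to 0.0226 for Hk1, -0.0617 to 0.0137 for Pfkm, -0.00858 to 0.0509 for Tpi1, -0.0483 to 0.0442 for Ldha, -0.00577 to 0.0375 for Ldhb, -0.0529 to 0.0525 for Slc16a3, -0.0328 to 0.0709 for Pfkfb2 and -0.0569 to 0.0137 for Vhl. Ratios ran from -0.0502 to 0.00312 for Eno2/Eno1, -0.0476 to 0.0902 for Ldhb/Ldha, -0.145 to 0.0815 for Slc16a1/Slc16a7 and -0.0672 to 0.0340 for Bnip3l/Bnip3. Hk1 was 0.00015 with limma-voom and 0.00012 on lane 6, Pfkm 0.0018 on lane 5, and Slc16a3 -0.000602 with DESeq2, -0.00214 with limma-voom and -0.0441 on lane 5. Without CAST_142 and WSB_100, Tpi1 was -0.0244, Ldha 0.0276, Pfkfb2 -0.0326 and Vhl 0.0441, and the ratios Pfkl/Pfkm 0.00395, Ldhb/Ldha -0.0222 and Bnip3l/Bnip3 0.0673. With copies added, Eno1 was -0.65, Ldhb -0.0758 and Bnip3l 0.12, and the ratios Eno2/Eno1 0.67, Ldhb/Ldha -0.0624 and Bnip3l/Bnip3 0.28; here the added reads are the cause. On lane 6, Eno2/Eno1 was 0.0103 and Slc16a1/Slc16a7 0.0310. The cause of the other changes was not tested.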
